A study of Saccharomyces cerevisiae with 24 samples.

Results

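The pheromone response genes described here are 10 genes of budding yeast that act in, or are induced by, the mating pheromone pathway. They are STE2 (YFL026W), GPA1 (YHR005C), SST2 (YLR452C), FUS3 (YBL016W), FAR1 (YJL157C), KAR4 (YCL055W), CIK1 (YMR198W), FUS1 (YCL027W), PRM1 (YNL279W) and AGA1 (YNR044W). They were chosen by name, with earlier results of these data known, and all 10 have a row among the 6205 open reading frames of the table and passed the filter that left 6195 genes for testing. The annotation used for names places FUS1 and KAR4 on chromosome III, PRM1 and AGA1 on chromosome XIV, FUS3 on II, STE2 on VI, GPA1 on VIII, FAR1 on X, SST2 on XII and CIK1 on XIII. No source used here names the genome build behind the arrays, so no coordinates are printed.

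The study compared total RNA of 4 strains with total RNA of DOT4-6Myc on 2-colour arrays. All strains were grown in YEPD, which is rich medium with glucose. DOT4, named UBP10 in the annotation, encodes a deubiquitinase of histone H2B. The compared strains were a dot4 null (UCC6435), dot4-1 (UCC6406) and dot4-5 (UCC6407), whose alleles carry the 6Myc tag, and a strain with untagged DOT4 (UCC6432). The common reference was the tagged wild type, DOT4-6Myc (UCC6408). Each genotype is represented by 1 strain, so strain and genotype cannot be told apart. No source used here states what dot4-1 and dot4-5 change, the mating type, or any other marker of these strains. No pheromone was named in the growth conditions.

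Yeast cells of mating type a respond to alpha-factor through the receptor Ste2. The receptor releases the Gpa1 subunit of a trimeric G protein from its Ste4-Ste18 partner, which starts a MAP kinase cascade that ends in Fus3 and Kss1. These kinases relieve the inhibitors Dig1 and Dig2 of the transcription factor Ste12, which then drives genes for cell cycle arrest, adhesion, cell fusion and nuclear fusion. Several of these genes also feed back on the pathway, and in cells without pheromone most of them keep a basal level of transcription.

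All values below are log2 ratios of a strain to DOT4-6Myc unless a difference between strains is named, and 1 unit is a 2-fold ratio. Each strain has 3 numbered sets of 2 arrays with exchanged dyes, 24 arrays in all, and a set mean averages the 2 arrays of a set. The direction is the likely direction: with channels read as the labels list them, the deleted gene UBP10 came out higher in the null strain on 6 of 6 arrays, so all arrays were turned. Under the label order every sign below is exchanged. With that turn UBP10 was 25.8-fold lower in dot4 null, at -4.69 ± 0.37 (SD, n = 3 sets, adjusted p = 1.22e-11), and lower in dot4-1 at -0.62 ± 0.054 (adjusted p = 7.61e-05). UBP10 stood at -0.24 ± 0.025 in dot4-5 and -0.17 ± 0.081 in untagged DOT4, higher on 0 of 6 arrays in each. It did not pass the test there (adjusted p = 0.817 and 0.202), which used a spread shared with dot4 null. A lower UBP10 in these strains is therefore not excluded. Tests are two-sided, from limma across all genes, with Benjamini-Hochberg adjustment and a threshold of 0.05. Whether the sets are separate cultures is not given, so the p-values may reflect technical spread only. Tests against DOT4-6Myc set each ratio against 0 and leave out the spread of the reference RNA.

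The pheromone response genes were higher than in DOT4-6Myc in dot4 null and in dot4-1, showed no detectable change in dot4-5, and were called lower more than higher in untagged DOT4, by 4 genes to 1. In dot4 null all 10 rose, from FUS3 at 0.18 to SST2 at 0.76. In dot4-1 7 rose, led by SST2 at 0.71, CIK1 at 0.65 and KAR4 at 0.60, while AGA1, STE2 and FUS3 did not pass the test. In untagged DOT4 AGA1, FUS3, SST2 and FUS1 fell and CIK1 rose. Ratios from whole cultures cannot tell fewer cells of a type from less RNA per cell.

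These counts stand against a broad background, and the 10 genes were chosen with earlier results of these data known. In dot4 null 30.7% of all genes tested were called higher and 32.7% lower, against 10 and 0 of the 10 pheromone response genes. In dot4-1 the background was 35.9% higher and 37.5% lower, against 7 and 0. In dot4-5 it was 0.920% higher and 0.113% lower, against 0 and 0, and the split of all calls was 57 higher and 7 lower, or 187 and 166 with a common spread for all arrays. In untagged DOT4 it was 11.2% higher and 14.6% lower, against 1 and 4. There 692 genes were called higher and 907 lower, but 192 higher and 1346 lower without centring, when the 10 genes had 0 and 5. The median of the 10 genes was 0.41 in dot4 null, 0.41 in dot4-1, 0.037 in dot4-5 and -0.18 in untagged DOT4, where the medians of all genes were -0.010, -0.0063, -0.0028 and -0.0053. With a common spread for all arrays the median of the 10 genes was 0.25 in dot4-1 and 0.072 in dot4-5. That setting shrinks the ratios of wide arrays and enlarges those of narrow arrays. The spread of an array (median absolute deviation) was 0.099 to 0.12 in dot4-5 and 0.27 to 0.42 in dot4 null and dot4-1. Smaller differences of these 2 strains from dot4-5 are therefore built into the setting. In dot4-5 the median of the 10 genes was -0.0072 with the strain in Cy3 alone, and in untagged DOT4 it was -0.085 in Cy5 alone and -0.11 in Cy3 alone. The 4 comparisons share DOT4-6Myc as the reference strain. Whether the same RNA preparation served all of them is not given.

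**Figure D1:**
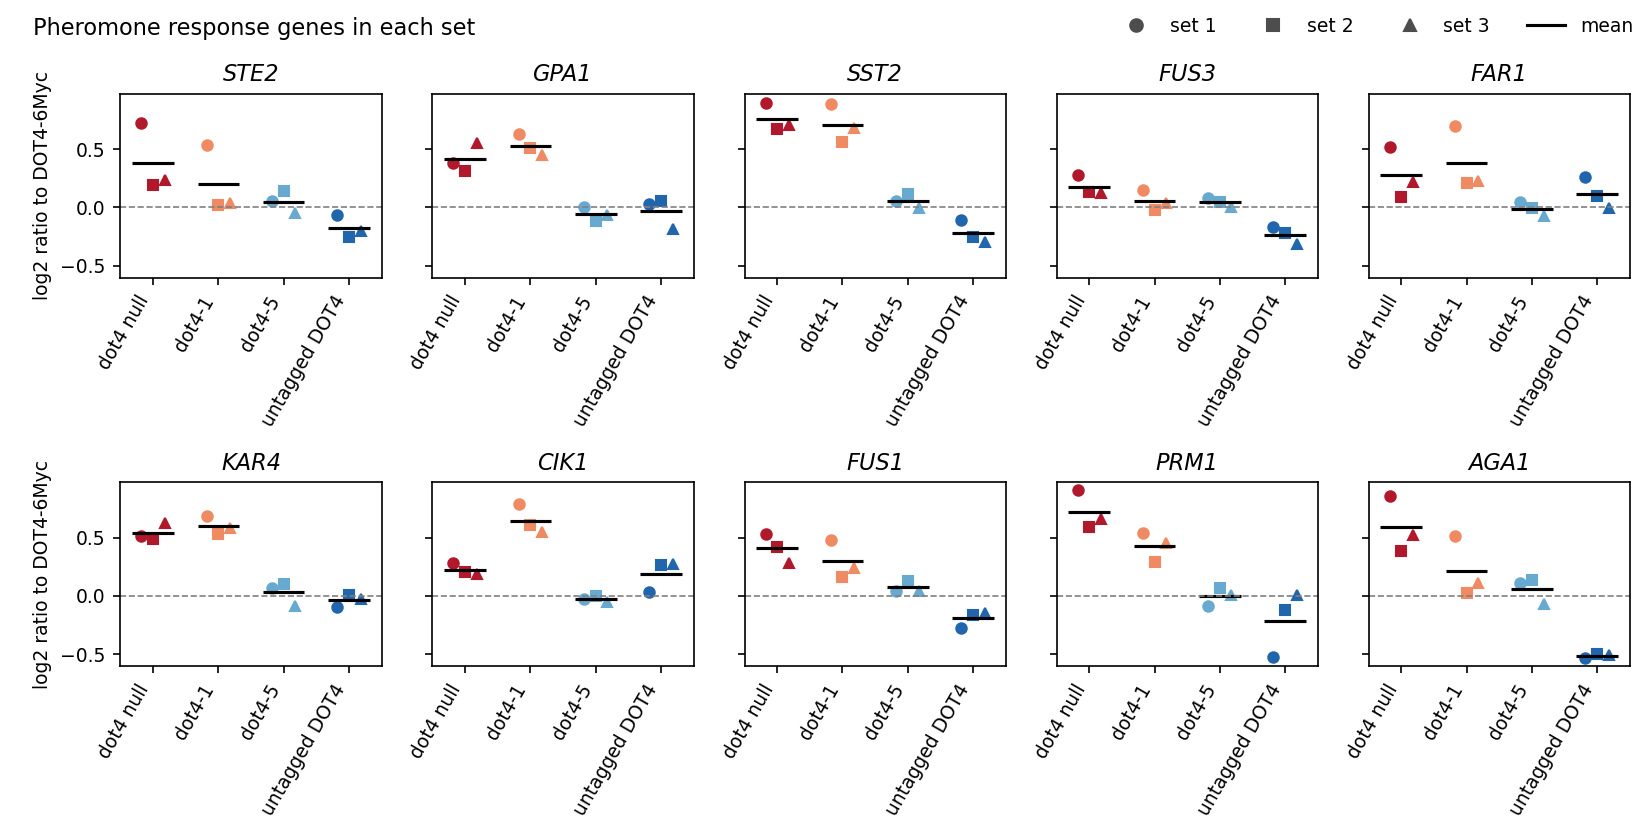
Each panel plots 1 pheromone response gene, with the log2 ratio to DOT4-6Myc on the vertical axis and the 4 strains across; a point is a set mean of 2 arrays, its shape gives the set, and the bar is the mean of 3 sets. SST2, PRM1, KAR4 and GPA1 sit well above 0 in dot4 null and dot4-1, all 10 genes sit near 0 in dot4-5, and the 3 sets of AGA1 in untagged DOT4 lie between -0.53 and -0.50.

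STE2 encodes the alpha-factor receptor, which is made in cells of mating type a. Its set means in sets 1, 2 and 3 were 0.73, 0.19 and 0.23 in dot4 null, 0.54, 0.021 and 0.039 in dot4-1, 0.052, 0.14 and -0.046 in dot4-5, and -0.061, -0.26 and -0.21 in untagged DOT4. Set 1 was the high set in dot4 null and in dot4-1, and the sets of dot4-5 overlapped those of dot4-1. STE2 rose in dot4 null at 0.38 ± 0.30 (SD, n = 3 sets, adjusted p = 0.00759), and at 0.20 ± 0.29 in dot4-1 it did not pass the test (adjusted p = 0.11). Without set 1 of dot4 null STE2 was at 0.21 there and was not called (adjusted p = 0.0838), whereas with set 1 of both dot4 null and dot4-1 left out the same value was called (adjusted p = 0.00349). With the strain in Cy5 alone the value in dot4 null was 0.25 (adjusted p = 0.0529). STE2 passed the test in dot4-1 in Cy3 alone (0.33, adjusted p = 0.019), with separate arrays and a dye term (adjusted p = 0.0276) and without dot4 null set 1 (adjusted p = 0.0438). In untagged DOT4, at -0.17, it was not called (adjusted p = 0.268), but passed in Cy5 alone (-0.34, adjusted p = 0.0256), with that strain fitted alone (adjusted p = 0.0312) and with set 1 of dot4 null and dot4-1 left out (adjusted p = 0.00682).

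GPA1 encodes the alpha subunit of the G protein, which restrains the pathway while no pheromone is bound. The set means of GPA1 were 0.38, 0.31 and 0.55 in dot4 null, 0.63, 0.52 and 0.45 in dot4-1, 0.004, -0.11 and -0.069 in dot4-5, and 0.032, 0.056 and -0.18 in untagged DOT4. The sets of dot4 null and dot4-1 overlapped each other and lay above every set of dot4-5 and untagged DOT4. GPA1 rose 1.33-fold in dot4 null (0.42 ± 0.12, adjusted p = 4.35e-05) and 1.45-fold in dot4-1 (0.53 ± 0.088, adjusted p = 3.83e-06).

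SST2 encodes the RGS protein that speeds the return of Gpa1 to its inactive state and so ends the signal. For SST2 the set means were 0.90, 0.67 and 0.71 in dot4 null, 0.89, 0.56 and 0.69 in dot4-1, 0.053, 0.11 and -0.0035 in dot4-5, and -0.11, -0.26 and -0.29 in untagged DOT4. Every set of the first pair of strains was above every set of dot4-5, and every set of untagged DOT4 was below every set of dot4-5. SST2 had the highest mean of the 10 genes in dot4 null, 1.70-fold up (0.76 ± 0.12, adjusted p = 7.44e-07), and in dot4-1, 1.64-fold up (0.71 ± 0.17, adjusted p = 8.51e-07). Only 1.03% of all genes tested had a higher ratio than SST2 in dot4 null, and 1.73% in dot4-1. In untagged DOT4 SST2 fell to -0.22 ± 0.099 (adjusted p = 0.0194), a call lost without set 2 (-0.20, adjusted p = 0.107), without set 3 (-0.18, adjusted p = 0.132) and with the strain in Cy3 alone (-0.12, adjusted p = 0.22).

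FUS3 encodes the MAP kinase of the pathway. It had set means of 0.28, 0.13 and 0.12 in dot4 null, 0.15, -0.021 and 0.035 in dot4-1, 0.083, 0.044 and 0.0065 in dot4-5, and -0.17, -0.22 and -0.32 in untagged DOT4. All 3 sets of untagged DOT4 were below every set of the other strains. FUS3 had the lowest mean of the 10 genes in dot4 null, at 0.18 ± 0.088 (adjusted p = 0.00383), and this call was narrowly missed when dot4 null was fitted alone (adjusted p = 0.0522). In dot4-1 FUS3 was at 0.054 ± 0.086 (adjusted p = 0.28). In untagged DOT4 it fell by 0.24 on the log2 scale, a 1.18-fold reduction lower on 6 of 6 arrays (SD 0.074, adjusted p = 0.0022).

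FAR1 encodes the inhibitor of the G1 cyclin-dependent kinase that arrests the cell cycle after pheromone. Set means of FAR1 were 0.52, 0.092 and 0.22 in dot4 null, 0.70, 0.21 and 0.23 in dot4-1, 0.046, -0.005 and -0.07 in dot4-5, and 0.26, 0.095 and -0.0025 in untagged DOT4. As for STE2, set 1 stood above the other sets in dot4 null and dot4-1. FAR1 rose in dot4 null (0.28 ± 0.22, adjusted p = 0.0216) and in dot4-1 (0.38 ± 0.28, adjusted p = 0.0029). The call in dot4 null was lost without set 1 (0.16, adjusted p = 0.189), without set 3 (0.31, adjusted p = 0.051), with all arrays put on a common spread (0.20, adjusted p = 0.0559) and with the strain in Cy5 alone (0.22, adjusted p = 0.0522). With set 1 of both dot4 null and dot4-1 left out it was called at 0.16 (adjusted p = 0.0287). In untagged DOT4 FAR1 was at 0.12 (adjusted p = 0.409).

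KAR4 encodes a transcription factor that works with Ste12 on genes of nuclear fusion. KAR4 gave set means of 0.52, 0.49 and 0.63 in dot4 null, 0.68, 0.54 and 0.58 in dot4-1, 0.068, 0.10 and -0.083 in dot4-5, and -0.096, 0.011 and -0.027 in untagged DOT4. The 6 sets of dot4 null and dot4-1 overlapped each other and were all higher than the 6 sets of the other strains. KAR4 rose 1.46-fold in dot4 null (0.54 ± 0.074, adjusted p = 9.42e-07) and 1.52-fold in dot4-1 (0.60 ± 0.075, adjusted p = 2.74e-07).

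CIK1 encodes the partner of the Kar3 motor protein, which moves nuclei together during mating and also acts on the mitotic spindle. Its sets 1, 2 and 3 averaged 0.28, 0.21 and 0.19 in dot4 null, 0.79, 0.61 and 0.55 in dot4-1, -0.025, 0.001 and -0.05 in dot4-5, and 0.037, 0.27 and 0.27 in untagged DOT4. Here dot4-1 stood alone, above every set of the other strains, while dot4 null and untagged DOT4 overlapped. CIK1 rose 1.57-fold in dot4-1 (0.65 ± 0.13, adjusted p = 5.41e-07) and was alone among the 10 in rising in untagged DOT4 (0.19 ± 0.13, adjusted p = 0.0185). In dot4 null it was at 0.23 ± 0.050 (adjusted p = 0.00268), but higher on only 4 of 6 arrays, and at -0.030 with the strain in Cy3 alone (adjusted p = 0.777). The call in untagged DOT4 was lost without set 2 (0.15, adjusted p = 0.138), without set 3 (0.15, adjusted p = 0.139), without centring of the arrays (0.11, adjusted p = 0.233) and in Cy3 alone (0.052, adjusted p = 0.699). The dye component of CIK1, the mean of the 2 orientations before turning, was -0.26 on the dot4 null arrays and -0.10 to -0.17 on those of the other strains.

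FUS1 encodes a membrane protein needed for cell fusion and is a classical reporter of the pathway. Across sets 1, 2 and 3 FUS1 was at 0.53, 0.42 and 0.29 in dot4 null, 0.48, 0.16 and 0.24 in dot4-1, 0.041, 0.13 and 0.046 in dot4-5, and -0.27, -0.16 and -0.14 in untagged DOT4. The strains kept the order dot4 null, dot4-1, dot4-5 and untagged DOT4 by mean, with overlap between dot4 null and dot4-1 alone. FUS1 rose in dot4 null (0.41 ± 0.12, adjusted p = 7.22e-05) and in dot4-1 (0.30 ± 0.17, adjusted p = 0.000658). In untagged DOT4 it fell by 0.19 on the log2 scale, lower on 6 of 6 arrays (SD 0.070, adjusted p = 0.0302). That last call was lost without set 1 (-0.15, adjusted p = 0.18), set 2 (-0.21, adjusted p = 0.086) or set 3 (-0.22, adjusted p = 0.0739), and in Cy5 alone (-0.13, adjusted p = 0.147).

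PRM1 encodes a membrane protein that promotes fusion of the plasma membranes of mating cells. PRM1 measured 0.91, 0.59 and 0.66 in the sets of dot4 null, 0.55, 0.29 and 0.46 in those of dot4-1, -0.085, 0.067 and 0.006 in dot4-5, and -0.53, -0.12 and 0.011 in untagged DOT4. All sets of dot4 null were above those of dot4-1, and all sets of dot4-1 above those of dot4-5 and untagged DOT4. PRM1 rose 1.65-fold in dot4 null (0.72 ± 0.17, adjusted p = 2.11e-05) and 1.35-fold in dot4-1 (0.43 ± 0.13, adjusted p = 0.000776). In untagged DOT4 it stood at -0.21 ± 0.28 (adjusted p = 0.0989), with a value of 0.18 in Cy5 alone (adjusted p = 0.184) and -0.61 in Cy3 alone (adjusted p = 0.00138). It passed the test there without centring (-0.29, adjusted p = 0.0119), with scaled arrays (-0.29, adjusted p = 0.0292) and without set 3 (-0.32, adjusted p = 0.0471).

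AGA1 encodes the anchor subunit of a-agglutinin, the adhesion protein of mating cells. The 3 sets of AGA1 gave 0.86, 0.39 and 0.52 in dot4 null, 0.51, 0.021 and 0.11 in dot4-1, 0.11, 0.14 and -0.073 in dot4-5, and -0.53, -0.50 and -0.51 in untagged DOT4. Untagged DOT4 was below every set of every other strain with little spread, while in dot4-1 set 1 stood apart from the other sets. AGA1 rose in dot4 null (0.59 ± 0.25, adjusted p = 0.000149). It fell 1.43-fold in untagged DOT4 (-0.51 ± 0.018, adjusted p = 0.00186), where 99.1% of all genes tested had a higher ratio. In dot4-1, at 0.21 ± 0.26, it missed the threshold (adjusted p = 0.0529), and passed it without dot4-1 set 2 (0.31, adjusted p = 0.0238). It also passed without dot4 null set 1 or 2 (adjusted p = 0.0216 and 0.0428), without centring (adjusted p = 0.0328), in Cy3 alone (adjusted p = 0.0241) and with separate arrays and a dye term (adjusted p = 0.0121).

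In dot4-5 none of the 10 genes passed the test, and the means ran from -0.060 for GPA1 to 0.073 for FUS1. Their smallest unadjusted p was 0.24, for FUS1. Over all genes limma called 64 in dot4-5, and 269 had an unadjusted p under 0.05. The 95% intervals limit how large a change could have gone unseen: from -0.18 to 0.062 for GPA1, from -0.056 to 0.20 for FUS1 and from -0.18 to 0.28 for STE2, the widest upward. Downward the widest was that of FAR1, from -0.21 to 0.20.

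**Figure D2:**
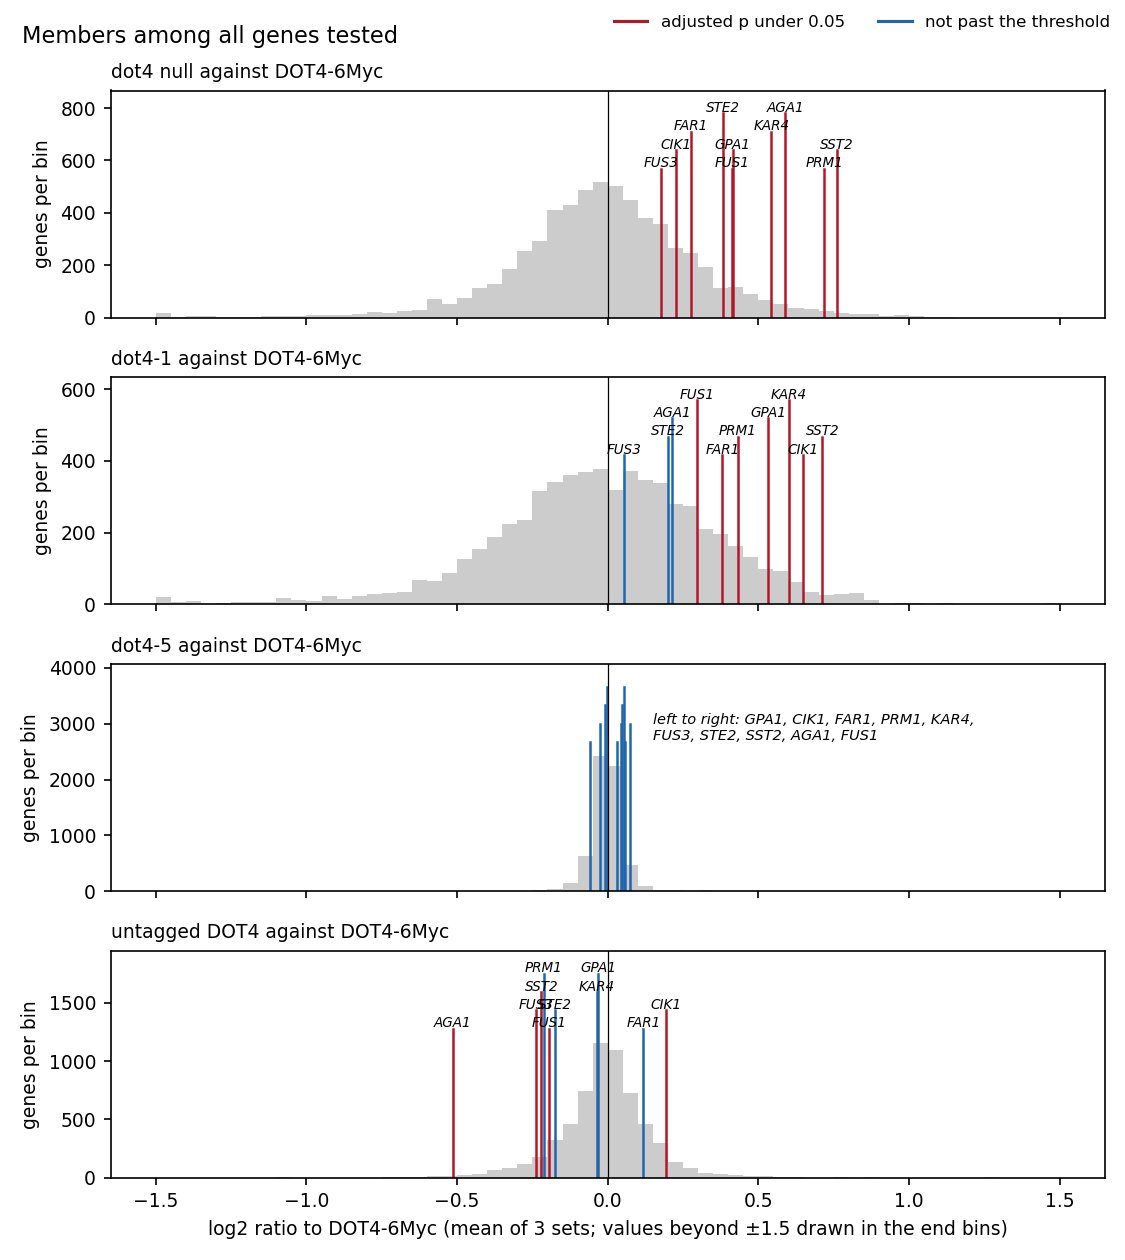
Grey bars count all 6195 genes tested by their mean log2 ratio to DOT4-6Myc in each strain, and coloured lines mark the 10 pheromone response genes, red where the adjusted p was under 0.05 and blue otherwise; line height carries no meaning. In dot4 null all 10 lines lie to the right of 0, in dot4-5 the lines lie between -0.060 and 0.073, and AGA1 at -0.51 is far to the left in untagged DOT4.

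Set against untagged DOT4 in place of the tagged strain, the rise in dot4 null was larger for AGA1, which was 2.15-fold higher in dot4 null (difference 1.10, 95% interval 0.82 to 1.39, adjusted p = 1.97e-05). SST2 was higher by 0.98, PRM1 by 0.93, FUS1 by 0.61, KAR4 by 0.58, STE2 by 0.56, GPA1 by 0.45 and FUS3 by 0.41, so 8 of the 10 genes were called higher, where 27.7% of all genes were. FAR1 (0.16, interval -0.13 to 0.45) and CIK1 (0.033, interval -0.13 to 0.20) were not called. The set means of dot4 null were all above those of untagged DOT4 for 8 of the 10 genes, against 28.6% of all genes. These differences run through DOT4-6Myc, the reference strain on the arrays of both strains.

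In dot4-1 against untagged DOT4, 9 of the 10 genes were called higher, where 31.6% of all genes were. SST2 led at 0.93 (interval 0.74 to 1.12, adjusted p = 2.75e-06), followed by AGA1 at 0.73, PRM1 at 0.64, KAR4 at 0.64 and GPA1 at 0.56. FAR1, at 0.26, was not called (adjusted p = 0.103), but passed without centring (0.36, adjusted p = 0.0306) and with separate arrays and a dye term (adjusted p = 0.0435). STE2, at 0.37, was called narrowly (adjusted p = 0.0466) and lost the call without set 1 of dot4-1 (0.20, adjusted p = 0.2) and in Cy3 alone (0.33, adjusted p = 0.0829), but not with set 1 of both dot4 null and dot4-1 left out (0.20, adjusted p = 0.0171). It also lost it without any single set of dot4-5 (0.37, lowest adjusted p 0.0565) or of untagged DOT4 (0.33 to 0.43, lowest adjusted p 0.0535). PRM1 lost its call in Cy5 alone (0.29, adjusted p = 0.102) and CIK1 with scaled arrays (0.15, adjusted p = 0.149).

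Between the alleles, 7 of the 10 genes were higher in dot4-1 than in dot4-5, where 29.6% of all genes were. CIK1 differed by 0.67 (interval 0.51 to 0.84, adjusted p = 2.06e-05), SST2 by 0.66, GPA1 by 0.59, KAR4 by 0.57, PRM1 by 0.44, FAR1 by 0.39 and FUS1 by 0.22. AGA1, STE2 and FUS3 were not called, with differences of 0.16 (interval -0.13 to 0.44), 0.15 (-0.18 to 0.48) and 0.0095 (-0.13 to 0.14). The difference in FUS1 was lost without set 1 of dot4-1 (0.13, adjusted p = 0.151) and without set 1 or 3 of dot4-5 (0.21 each, adjusted p = 0.0941 and 0.0925). The difference in FAR1 was lost without set 1 of dot4-1 (0.23, adjusted p = 0.092) and without set 2 or 3 of dot4-5 (0.39 and 0.36, adjusted p = 0.054 and 0.07), but not with set 1 of both dot4 null and dot4-1 left out (0.23, adjusted p = 0.0161). With a common spread for all arrays the difference was 0.030 for FUS1 (adjusted p = 0.79), 0.26 for PRM1 (adjusted p = 0.156) and 0.25 for FAR1 (adjusted p = 0.0987), none of them called. FUS1 was not called without centring (adjusted p = 0.078) or in Cy3 alone (adjusted p = 0.173), nor were PRM1 and FAR1 in Cy5 alone (adjusted p = 0.0506 and 0.0602).

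In dot4 null against dot4-5, 7 of the 10 genes were called higher as well, where 23.3% of all genes were. PRM1 differed by 0.72 (interval 0.45 to 0.99, adjusted p = 0.00066), SST2 by 0.71, AGA1 by 0.53, KAR4 by 0.51, GPA1 by 0.47, FUS1 by 0.34 and CIK1 by 0.25. STE2 (0.33, adjusted p = 0.0875), FAR1 (0.29, adjusted p = 0.0956) and FUS3 (0.13, adjusted p = 0.0985) missed the threshold, although for all 10 genes every set of dot4 null was above every set of dot4-5, against 26.8% of all genes. Without set 1 of dot4-1, a strain outside the comparison that shares its estimate of spread, STE2 and FAR1 passed (adjusted p = 0.0362 and 0.0311). They also passed with separate arrays and a dye term (adjusted p = 0.0162 and 0.0365). CIK1 lost its call without dot4-5 set 3 (0.24, adjusted p = 0.0531) and in Cy3 alone, where it was at 0.095 (adjusted p = 0.554). With a common spread for all arrays the difference was 0.14 for FUS1 (adjusted p = 0.183), 0.31 for AGA1 (adjusted p = 0.0699) and 0.19 for CIK1 (adjusted p = 0.0849), none of them called.

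Between dot4 null and dot4-1, 1 of the 10 genes was called. CIK1 was lower in dot4 null by 0.42 on the log2 scale, a mean of 0.23 against 0.65 in dot4-1 (interval -0.59 to -0.26, adjusted p = 0.00532), and it was the only called gene of the 10, where 4.83% of all genes were called lower and 4.99% higher. AGA1 was at 0.38 (interval 0.090 to 0.66, adjusted p = 0.0826) and PRM1 at 0.29 (interval 0.015 to 0.56, adjusted p = 0.149). For SST2 (0.049, interval -0.14 to 0.24), KAR4 (-0.058, interval -0.20 to 0.081), GPA1 (-0.12, interval -0.29 to 0.055) and FAR1 (-0.10, interval -0.39 to 0.19) the intervals included 0. STE2 (0.18, interval -0.15 to 0.51), FUS1 (0.12, interval -0.066 to 0.30) and FUS3 (0.12, interval -0.012 to 0.26) were not called either.

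Same-numbered sets of dot4 null and dot4-1 deviated together from their strain means, with correlations across genes of 0.672, 0.509 and 0.317. Set 2 of dot4 null also correlated with set 3 of dot4-1 at 0.32, and set 3 with set 2 at 0.452. Sets 2 and 3 were therefore not shown to pair by number, and set 1 alone stood out. A paired fit of these 2 strains, with set number as a replicate block, called 4 of the 10 genes, 3 higher and 1 lower, where 7.81% of all genes were called higher and 6.17% lower. AGA1 (0.38, adjusted p = 0.00475), PRM1 (0.29, adjusted p = 0.0171) and STE2 (0.18, adjusted p = 0.0481) were higher in dot4 null in that fit, and CIK1 was lower (-0.42, adjusted p = 0.00435). That fit was added after the data were seen. Without set 1 of dot4-1 alone, AGA1 also passed in the unpaired fit (0.52, adjusted p = 0.0206), as it did with separate arrays and a dye term (adjusted p = 0.0188). The CIK1 difference was lost with a common spread for all arrays (-0.23, adjusted p = 0.318).

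In dot4-5 against untagged DOT4, AGA1 was higher by 0.57 (interval 0.29 to 0.86, adjusted p = 0.0135) and FUS3 by 0.28 (interval 0.15 to 0.42, adjusted p = 0.0112), 2 of 10 genes where 8.23% of all genes were called higher. SST2 (0.27, adjusted p = 0.058), FUS1 (0.27, adjusted p = 0.0562) and CIK1 (-0.22, adjusted p = 0.0801) lay close to the threshold. The call of AGA1 was lost without dot4-5 set 2 (0.53, adjusted p = 0.0617) and that of FUS3 without untagged DOT4 set 3 (0.24, adjusted p = 0.051) and in Cy3 alone (0.24, adjusted p = 0.0753). Without dot4-1 set 1, which enters only through the shared spread, SST2 (adjusted p = 0.0269), FUS1 (adjusted p = 0.0208) and CIK1 (adjusted p = 0.0438) passed. Without dot4 null set 1 SST2 and FUS1 passed (adjusted p = 0.0286 and 0.0301), as they did without dot4-1 set 2 (adjusted p = 0.0436 and 0.0473).

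**Figure D3:**
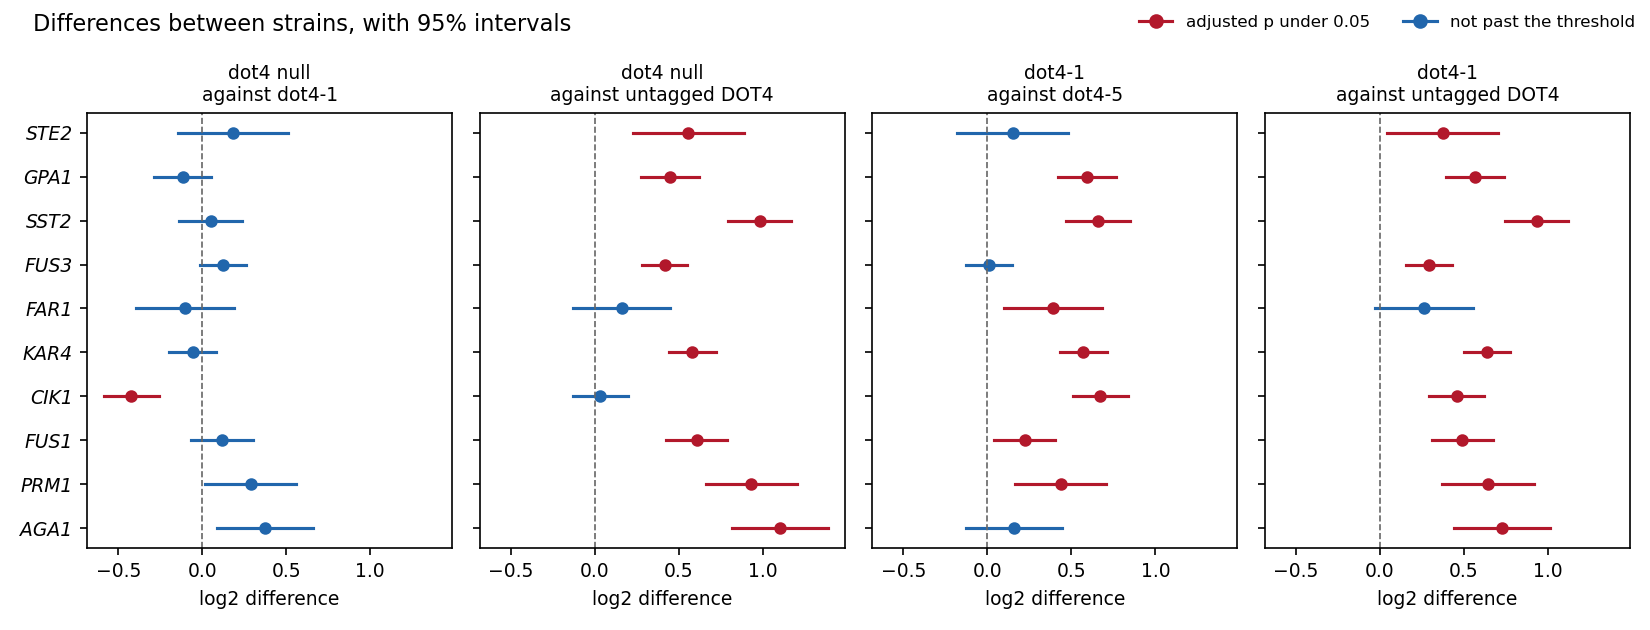
Points are log2 differences between strains for each pheromone response gene and lines are their 95% intervals from the fit, red where the adjusted p was under 0.05 and blue otherwise. Between dot4 null and dot4-1 only CIK1 is marked, at -0.42, while against untagged DOT4 8 genes in dot4 null and 9 in dot4-1 are marked as higher.

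Set 1 was the highest of the 3 sets for 8 of the 10 genes in dot4 null and for 10 of 10 in dot4-1, against 45.4% and 42.5% of all genes. In dot4-5 it was the highest for 3 genes and in untagged DOT4 for 4, against 30.5% and 36.5% of all genes. The gap was widest for STE2, AGA1 and FAR1. With set 1 of both strains left out, a setting chosen after the data were seen, 10 of the 10 genes were called higher in dot4 null and 7 in dot4-1, where 34.4% and 37.8% of all genes were. STE2 was then at 0.21 in dot4 null and 0.030 in dot4-1, AGA1 at 0.45 and 0.065, and FAR1 at 0.16 and 0.22.

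The other genes of the signalling pathway, a list of 17 with all 17 tested, had medians nearer 0 than the 10 genes in dot4 null and dot4-1. In dot4 null 4 rose and 2 fell, with a median of 0.0089, and in dot4-1 11 rose and 3 fell, with a median of 0.12. Over all genes 30.7% were called higher and 32.7% lower in dot4 null, and 35.9% and 37.5% in dot4-1. STE4, the beta subunit of the G protein, rose to 0.33 ± 0.074 in dot4 null (adjusted p = 2.25e-05) and 0.30 ± 0.054 in dot4-1 (adjusted p = 3.76e-05), and STE18, its gamma subunit, to 0.25 and 0.26. PTP3, a tyrosine phosphatase that acts on Fus3, rose to 0.31 in dot4 null and 0.40 in dot4-1. DIG2, an inhibitor of Ste12, fell to -0.34 in dot4 null and -0.17 in dot4-1, whereas DIG1, the other such inhibitor, rose to 0.23 and 0.37. STE50, an adaptor of the kinase Ste11, rose to 0.31 in dot4-1 and was at 0.12 in dot4 null (adjusted p = 0.051).

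STE12 itself, the transcription factor of the pathway, was at -0.028 in dot4 null (adjusted p = 0.622) and 0.053 in dot4-1 (adjusted p = 0.329). None of the 17 was called in dot4-5, where 0.920% of all genes were called higher and 0.113% lower. In untagged DOT4 1 rose and 2 fell: DIG2 at 0.15, STE4 at -0.14 and STE5, the scaffold of the cascade, at -0.11. Over all genes 11.2% were called higher and 14.6% lower in that strain. The list had 0 calls there without set 3 of untagged DOT4, and 1 higher and 0 lower without its set 2 or with that strain fitted alone. Over all genes 358 were higher and 555 lower without set 3, 403 and 578 without set 2, and 745 and 937 fitted alone. With a common spread for all arrays the counts in dot4-1 were 5 higher and 2 lower, against 1626 and 1660 of all genes.

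Among 14 other genes known to be induced by pheromone, 6 rose and 2 fell in dot4 null (median 0.10). In dot4-1 6 rose and 4 fell (median 0.045), and in dot4-5 none was called (median -0.017). In untagged DOT4 1 rose and 4 fell (median -0.15). The shares of all genes called higher and lower were 30.7% and 32.7% in dot4 null, and 35.9% and 37.5% in dot4-1. They were 0.920% and 0.113% in dot4-5, and 11.2% and 14.6% in untagged DOT4. The lowest values of the list were PRM10 at -0.30 in dot4 null and CHS1 at -0.36 in dot4-1. KAR3, the motor partner of Cik1, rose to 0.51 ± 0.12 in dot4 null (adjusted p = 9.09e-07) and 0.81 ± 0.065 in dot4-1 (adjusted p = 2.15e-08), and like CIK1 it also rose in untagged DOT4 (0.18 ± 0.025, adjusted p = 0.00845). KAR3 and KAR5, a gene of nuclear fusion, were the list members called lower in dot4 null than in dot4-1. PRM3, also needed for nuclear fusion, rose to 0.48 in dot4 null and 0.60 in dot4-1, and FUS2, needed for cell fusion, to 0.34 and 0.38. FIG2, an adhesin of mating cells, rose to 0.31 in dot4 null, and KAR5 to 0.40 in dot4-1. In untagged DOT4 CHS1, a chitin synthase, fell to -0.62, PRM6 to -0.35 and FIG1, a membrane protein of mating cells, to -0.26. PRM6 and FIG1 had the opposite sign in Cy5 alone.

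With the strain in Cy3 alone these other pheromone-induced genes had 2 higher and 2 lower in dot4 null, and with that strain fitted alone 4 higher and 1 lower. Over all genes the counts there were 1758 higher and 1756 lower in Cy3 alone, and 1350 and 1397 fitted alone. In dot4-1 the list had 4 higher and 1 lower with a common spread for all arrays, against 1626 and 1660 of all genes. In untagged DOT4 it had 0 higher and 8 lower without centring, 1 higher and 7 lower with a common spread, and 0 higher and 2 lower without its set 2. The counts of all genes were 192 and 1346, 1075 and 1232, and 403 and 578 in these 3 settings.

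Genes specific to a mating type are given because the type of the strains was not stated. Of 6 a-specific genes, 1 rose in dot4 null, STE6, the exporter of a-factor, at 0.22, and 3 fell in dot4-1: AGA2, the binding subunit of a-agglutinin, at -0.38, ASG7 at -0.37 and MFA1, a gene for a-factor, at -0.19. Their medians were 0.12 in dot4 null, -0.052 in dot4-1, 0.036 in dot4-5 and -0.082 in untagged DOT4. None was called in dot4-5 or untagged DOT4. Of all genes, 30.7% were called higher and 32.7% lower in dot4 null, and 35.9% and 37.5% in dot4-1. AGA1 and AGA2, whose products form 1 complex, were at 0.59 and -0.033 in dot4 null and at 0.21 and -0.38 in dot4-1.

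Of 4 alpha-specific genes SAG1, the alpha-agglutinin, rose in dot4 null (0.26) and in dot4-1 (0.46). MF(ALPHA)2, a gene for alpha-factor, fell in dot4 null (-0.099), and STE3, the a-factor receptor, and MF(ALPHA)1 fell in dot4-1 (-0.28 and -0.18). The shares of all genes called higher and lower were 30.7% and 32.7% in dot4 null, and 35.9% and 37.5% in dot4-1. None of the 4 was called in dot4-5 or untagged DOT4. These small counts moved with the processing: in dot4-1 with a common spread for all arrays, 1 a-specific gene was lower and 0 were higher, and 1 alpha-specific gene was higher and 0 were lower. With that spread 1626 of all genes were higher and 1660 lower in dot4-1. In dot4 null the a-specific genes called numbered 0 in Cy5 alone and 3 in Cy3 alone, where 4090 and 3514 of all genes were called. MF(ALPHA)2 was of the opposite sign in Cy5 alone. A ratio holds no level, so whether a receptor gene was expressed at all could not be read from these arrays.

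The 7 haploid-specific genes share STE4, STE5 and STE18 with the signalling list. In dot4 null 3 rose and 1 fell, where 30.7% of all genes were called higher and 32.7% lower. In dot4-1 4 rose and 2 fell, against 35.9% and 37.5% of all genes. AXL1, a protease that matures a-factor, rose to 0.33 in dot4 null and 0.37 in dot4-1, and RME1, a repressor of meiosis, fell to -0.31 and -0.65. None of the 7 was called in dot4-5. In untagged DOT4 0 rose and 2 fell, STE4 and STE5, where 11.2% of all genes were called higher and 14.6% lower. Without set 2 or set 3 of untagged DOT4 none of the 7 was called there, where 981 and 913 of all genes were.

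Several of the 10 genes also vary with the cell cycle, so 14 genes of late mitosis and early G1 were read beside them. In dot4 null 10 of these rose and 2 fell (median 0.31), where 30.7% of all genes were called higher and 32.7% lower. In dot4-1 7 rose and 3 fell (median 0.21), against 35.9% and 37.5% of all genes. In dot4-5 none was called (median 0.010), against 0.920% and 0.113%. In untagged DOT4 1 rose and 4 fell (median -0.042), against 11.2% and 14.6%. The genes of daughter cell separation DSE4 (0.52), SCW11 (0.49), DSE3 (0.42) and CTS1 (0.38) led in dot4 null. CDC6, of replication licensing, led in dot4-1 (0.64), followed by DSE4 (0.56), SWI4, a transcription factor of G1 (0.53), and PCL9, a cyclin (0.41). At the other end of the list lay CLN3 at -0.24 in dot4 null and PIR1 at -0.23 in dot4-1. In untagged DOT4 CTS1 fell to -0.30, DSE2 to -0.21 and EGT2 to -0.18, while SWI4 rose to 0.29. DSE2 had the opposite sign in Cy3 alone there, where 1 gene of the list was higher and 0 were lower. Over all genes 752 were higher and 878 lower in that setting. These genes moved in the same strains as the pheromone response genes, and their part in the result was not tested.

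**Figure D4:**
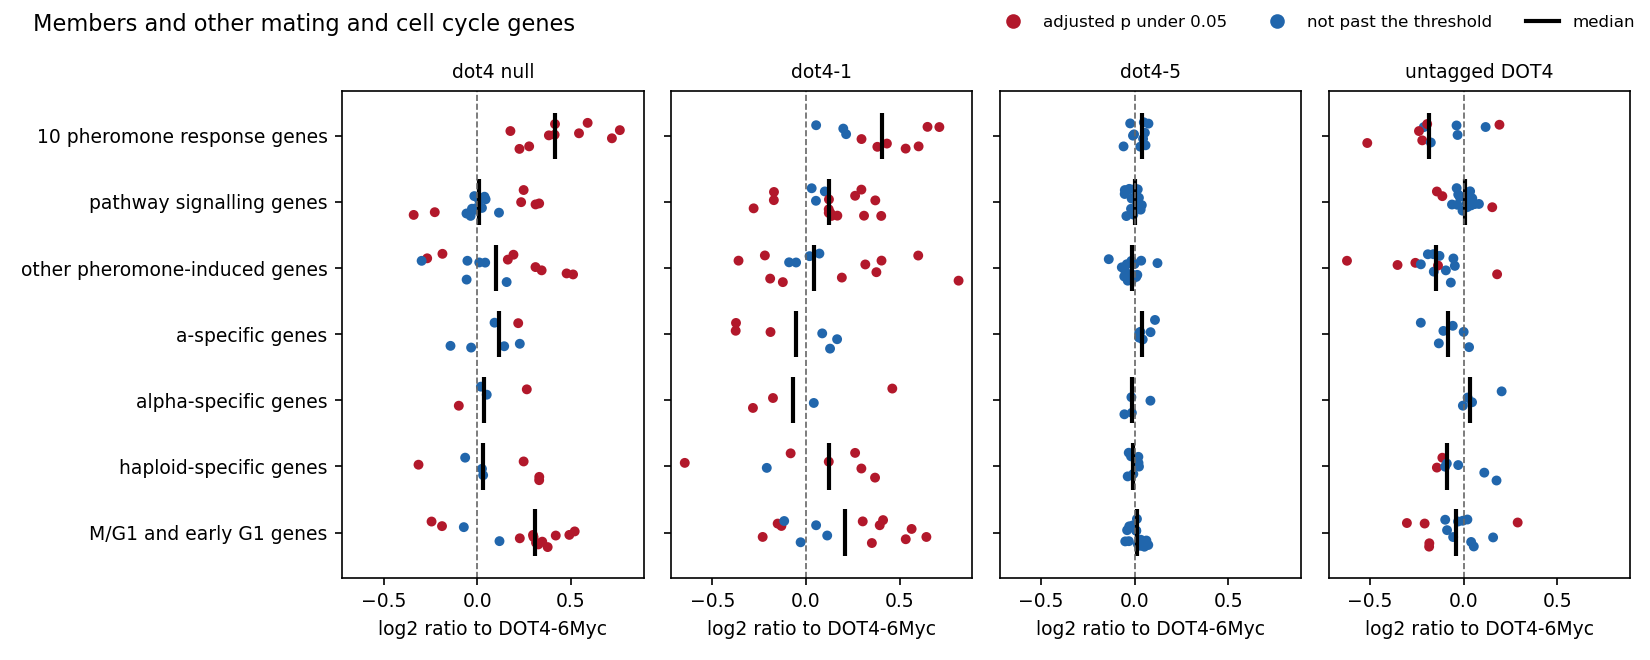
Each point is a gene of a list, placed by its mean log2 ratio to DOT4-6Myc in each of 4 strains, red where the adjusted p was under 0.05 and blue otherwise, and a vertical bar marks the median of the list; vertical scatter within a row carries no meaning. The medians of the 10 pheromone response genes were 0.41 in dot4 null and 0.41 in dot4-1, and the lists nearest to them were the genes of late mitosis and early G1, at 0.31 and 0.21.

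The 10 genes did not all follow 1 profile. Over the 12 set means, the correlation between pairs of the 10 genes ran from 0.135 for CIK1 and FUS3 to 0.96 for FUS3 and AGA1. Each gene was also set against the mean of the 10 after division by its own SD, in which it takes part: SST2 was closest at 0.981 and CIK1 farthest at 0.621, next to FAR1 at 0.772. The 12 values share the reference strain and fall into 4 strains, so these coefficients describe the strain profile and carry no test.

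Among 6166 other genes with all 12 set means, the 5 closest to that mean profile were UTP15 (r = 0.991), RAP1 (0.988), AXL1 (0.98), RSA4 (0.979) and AAT1 (0.976). UTP15 is a factor of small-subunit ribosome synthesis, RSA4 of large-subunit assembly, RAP1 a telomere-binding transcription factor, and AAT1 a mitochondrial aspartate aminotransferase. Their means in dot4 null, dot4-1, dot4-5 and untagged DOT4 were 0.57, 0.54, 0.055 and -0.068 for UTP15. For RAP1 they were 0.52, 0.53, 0.026 and -0.078, and for AAT1 0.65, 0.72, 0.025 and -0.058. AXL1, of the haploid-specific list, alone of the 5 belongs to a list read here.

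The genes on either side of the 10 in the annotation were called in both directions, as were genes at large. Of these neighbours 17 were tested, with none beside KAR4 and only RNQ1 beside FUS1. In dot4 null 5 were higher and 6 lower (median 0.0053), near the 30.7% and 32.7% of all genes. In dot4-1 4 were higher and 8 lower (median 0.0075), against 35.9% and 37.5%. In dot4-5 none was called, against 0.920% and 0.113%. In untagged DOT4 4 were higher and 2 lower (median 0.036), against 11.2% and 14.6%. The neighbours named next were chosen after their values were seen. LEU3, beside SST2, was at 0.52 in dot4 null and 0.70 in dot4-1, and GYP8, beside STE2, at 0.56 and 0.61. CIS3, beside FAR1, was at -0.58 in dot4 null and -0.85 in dot4-1, opposite in sign to FAR1. CLN1, the G1 cyclin gene beside CIK1, was at -0.59 in dot4 null, -0.33 in dot4-1, 0.069 in dot4-5 and 0.41 in untagged DOT4.

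The mating-type genes were also read after their values were seen, because their products set the cell type that allows a pheromone response. HMRA1 was at 0.35 in dot4 null (adjusted p = 7.13e-06) and 0.39 in dot4-1 (adjusted p = 1.86e-06), 0.037 in dot4-5 and 0.099 in untagged DOT4 (adjusted p = 0.0702). HMRA2 was at 0.18 in dot4 null, 0.27 in dot4-1, -0.028 in dot4-5 and 0.15 in untagged DOT4, and passed the test in all but dot4-5. HMLALPHA1 and MATALPHA2 were not called in any strain, HMLALPHA2 was called in untagged DOT4 (0.15) and MATALPHA1 in dot4 null (-0.19, adjusted p = 0.0465). Of all genes, 30.7% were called higher and 32.7% lower in dot4 null, and 35.9% and 37.5% in dot4-1. The shares were 0.920% and 0.113% in dot4-5, and 11.2% and 14.6% in untagged DOT4. The silent loci carry near-identical copies of the MAT genes, so the copies cannot be told apart on these arrays.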

How the data were processed

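The table as deposited holds a log2 channel ratio for each open reading frame and array, with 83 of 148920 cells empty. The log2 scale is an inference from the values, because exact log2 values of whole ratios recur: log2 of 3 occurs in 19 cells and log2 of 4 in 8, where neighbouring values occur in 0.3 and 0.15 cells on average. No source used here gives the array type, scanner, background correction or normalization. Array medians ran from -0.092 to 0.28 as deposited. The dye component correlated at 0.823 to 0.906 between strains, so the numerator holds the same dye throughout. All arrays were turned because of UBP10, although the plan had been to follow the labels.

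The median of each array was subtracted, arrays were turned, and both dye orientations of a set were averaged into 12 set means. limma 3.58.1 in R 4.3.3 (lmFit, then eBayes) estimated 1 mean per strain, leaving 8 residual degrees of freedom. Genes needed at least 2 sets per strain measured in both orientations, which kept 6195 and removed 10. There were 10 comparisons, 4 with DOT4-6Myc and 6 between strains, each adjusted over its own genes. The fit was also run on simulated data with independent noise and changes in dot4-1 alone. That setting is simpler than these data, so it does not bear on the calls here. Figures used Python 3.11.15 and matplotlib 3.10.9. The number of arrays limits the precision.

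The 10 genes and the lists were chosen with earlier results of these data known. Named genes are the 10, UBP10, up to 4 called genes with the largest change per list and strain, and the 5 genes most alike in profile; others are said to be outside this rule or are given for comparison. STE12, DIG2 in dot4-1, and DIG1, STE50 and AGA2 in dot4 null were given beside named genes. The lowest values of the other pheromone-induced genes and of the genes of late mitosis and early G1 were given for comparison. Of the IDs, 5705 matched the annotation and 500 did not. Set numbers were taken as pairing dot4 null and dot4-1 alone, where every same-numbered pair correlated above 0.1. Sets 2 and 3 of these strains also correlated above 0.1 across numbers. Alternatives were no centring, a common spread for all arrays, each dye orientation alone, separate arrays with a dye term, a replicate block, no filter, a fit of the compared strains alone, and leaving out each set.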

Additional observations from a re-analysis of the deposited data

Results flagged for a closer look

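For CIK1 in untagged DOT4, 1 array of 6 stood apart: set 1 with the strain in Cy3 gave -0.219, while the other arrays lay between 0.173 and 0.369, and its gap to the nearest of them was 0.667 of the whole range, above the critical value of 0.625. Over the 40 groups of 6 arrays examined this was 1 such array, and chance alone marks about 1 group in 20.

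In dot4-5 both dye orientations gave opposite signs on all 3 arrays each for CIK1 and PRM1. CIK1 averaged 0.076 with the strain in Cy5 and -0.125 with it in Cy3, and PRM1 averaged 0.113 with the strain in Cy5 and -0.121 with it in Cy3. The difference between orientations was not tested.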

How the results depend on the processing

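Of the 10 genes, 8 to 10 were called higher in dot4 null and 0 in dot4-5 under every alternative run. Over all genes 1350 to 2131 were called higher in dot4 null in these runs, and 44 to 458 were called in dot4-5. For calls of the 10 genes in dot4-5 against untagged DOT4 the count of 2 became 4 without centring, 5 with a common spread, 1 in Cy3 only, 4 with separate arrays and 6 with those strains fitted alone. For dot4 null against dot4-1 the count of 1 became 0 with a common spread, 2 with separate arrays, 2 with the replicate block in all strains and 4 with the replicate block in these 2 strains, which was chosen after the data were seen. With a common spread 4 genes, not 7, were called in dot4 null against dot4-5 and also 4 in dot4-1 against dot4-5. That setting makes all arrays equally wide, so smaller differences from dot4-5 are built into it. Over all genes dot4-5 had 64 calls, but 353 with a common spread, 458 in Cy5 only, 435 in Cy3 only and 140 fitted alone. Leaving out sets gave 44 to 97 calls in dot4-5 and 913 to 2430 in untagged DOT4. The calls of the 10 genes ranged from 2 (without set 2 of that strain; 3 without its set 3) to 6 in untagged DOT4, from 1 to 6 in dot4-5 against untagged DOT4, and from 1 to 2 in dot4 null against dot4-1. By construction, a value in 1 orientation alone is the mean of both with the dye component added or taken away. That component was -0.26 for CIK1 in dot4 null and -0.39 for PRM1 in untagged DOT4. Beyond that, the cause of these shifts and of the turned signs was not tested.

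Of the values whose sign turned, CIK1 in dot4 null alone had been called (-0.030 in Cy3 only). PRM1 in untagged DOT4 was 0.18 in Cy5 only. In dot4-5, Cy5 only gave -0.015 for SST2, 0.11 for PRM1, 0.076 for CIK1, -0.085 for STE2 and 0.015 for FAR1, and Cy3 only gave -0.017 for KAR4. PRM1 in dot4-5 was 0.011 without centring and 0.0029 with a common spread, and FAR1 there was 0.0048 without centring. In Cy5 only KAR4 in untagged DOT4 was 0.024, PRM1 in dot4-5 against untagged DOT4 was -0.069, and FUS3 in dot4-1 against dot4-5 was -0.036. With a common spread FUS3 in dot4-1 against dot4-5 was -0.049, CIK1 in dot4 null against untagged DOT4 was -0.085 (-0.082 in Cy3 only), and KAR4 in dot4 null against dot4-1 was 0.0098. GPA1 in dot4-5 against untagged DOT4 was 0.065 without centring.

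With sets left out the sign also turned for 10 values. In dot4-5 these ran from -0.039 to 0.037 for PRM1, -0.0075 to 0.086 for KAR4 and -0.038 to 0.021 for FAR1, and in untagged DOT4 from -0.076 to 0.044 for GPA1. Between dot4 null and dot4-1 they ran from -0.027 to 0.14 for SST2 and -0.23 to 0.058 for FAR1, and between dot4-1 and dot4-5 from -0.038 to 0.047 for FUS3 and -0.019 to 0.24 for STE2. CIK1 in dot4 null against untagged DOT4 ran from -0.044 to 0.073, and GPA1 in dot4-5 against untagged DOT4 from -0.10 to 0.016.

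The set numbers did not pair the strains in general: 7 of 18 same-numbered pairs correlated above 0.1 (from -0.303 to 0.672), and 7 of 12 sets correlated best with their own number. With the replicate block in all strains 92 of 100 values of the 10 genes kept their call and 8 more were called. Among these were STE2 and AGA1 in dot4-1 (adjusted p = 0.0318 and 0.0236) and FAR1 in dot4-1 against untagged DOT4 (adjusted p = 0.0153). STE2, FAR1 and FUS3 in dot4 null against dot4-5 were also among them (adjusted p = 0.023, 0.0139 and 0.0406). Over all genes 4589 were called in dot4-1 with the block and 4545 without it. Between strains, the share of all genes called was counted only in the main fit and in the block of dot4 null and dot4-1 alone. Counts of the 10 genes between strains in other settings therefore have no such share beside them. Signal over background is not known for these arrays, so what dimness limits cannot be said.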
